A study of Mus musculus with 18 samples.

Results

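A set of 10 genes best known from the germline were followed in mouse embryonic stem cells, which express some of them while they remain pluripotent: Stra8, Tex14, Dazl, Ddx4, Mael, Sycp3, Dppa3, Prdm1, Hormad1 and Taf7l. They were chosen by name with earlier results of these data known. Counts of them called are therefore a description, and no excess over all probe sets is read from them. Every probe set that the array's annotation assigned to 1 of these symbols was taken, which gave 11 of 45101 probe sets, or 10 of 18193 genes. Dazl had 2 probe sets and the other 9 genes had 1 each. RNA of each sample was hybridised to 1 Affymetrix expression array, with 3 arrays, labelled as biological replicates, in each of 6 groups.

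The cells of 4 groups were CGR8 cells, an established line of mouse embryonic stem cells, grown in serum with LIF and transfected with plasmids by lipofection. They received Foxd3, CA-NFATc3, Foxd3 with CA-NFATc3 (called both below), or an empty vector. Foxd3 is a forkhead transcription factor of pluripotent and neural crest cells, and NFATc3 is a transcription factor of the calcineurin pathway. The other 2 groups were conditional knockout cells of the genotype Foxd3fl/fl:Cre-ERT, which carry floxed Foxd3 and a tamoxifen-inducible Cre in both arms, treated with tamoxifen for 2 days or with DMSO (0 days of tamoxifen). The labels name CGR8 and the same transfection protocol for these cells too. The sources used here do not give whether the conditional line is 1 clone, what drives its Cre, how long after transfection cells were taken, or whether feeder cells were present. The labels do not say how the replicate cultures were separated, so p-values measure the spread between these samples, which may be partly technical.

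Germ cells arise from pluripotent cells of the epiblast, where PRDM1 (Blimp1) drives their specification and DPPA3 (Stella) marks them. DAZL, an RNA-binding protein, and DDX4 (the mouse Vasa helicase) act once germ cells reach the gonad, and retinoic acid then induces Stra8, which is needed for entry into meiosis. HORMAD1 and SYCP3 build the axes of meiotic chromosomes, MAEL works in piRNA-guided silencing of transposons, TEX14 keeps the bridges between dividing germ cells open, and TAF7L is a germ cell relative of a subunit of the general transcription factor TFIID. In other cells many germline promoters are silenced by DNA methylation or by a repressor complex with E2F6, MGA and PCGF6, which reads E2F and E-box motifs.

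The sequence upstream of 5 of these genes is shown, because Stra8, Tex14 and Taf7l changed in the most comparisons below and Mael and Ddx4 had the smallest adjusted p after tamoxifen. Each is the 250 bases before the gene's start in the RefSeq promoter table (build GRCm38.p6), read along the gene's strand. Capitals mark 4 motifs, searched on both strands: CACGTG (an E-box, the same on both strands), GCGGGAA or TTCCCGC (the core of E2F sites), AGGTCA or TGACCT (a core motif of retinoid and other nuclear receptors) and GTAAACA or TGTTTAC (the core of forkhead sites).
Stra8: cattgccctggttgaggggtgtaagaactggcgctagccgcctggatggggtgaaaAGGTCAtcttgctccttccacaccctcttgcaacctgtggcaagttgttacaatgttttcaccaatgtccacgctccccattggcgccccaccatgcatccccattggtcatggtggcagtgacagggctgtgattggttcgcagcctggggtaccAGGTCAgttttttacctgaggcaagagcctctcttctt
Tex14: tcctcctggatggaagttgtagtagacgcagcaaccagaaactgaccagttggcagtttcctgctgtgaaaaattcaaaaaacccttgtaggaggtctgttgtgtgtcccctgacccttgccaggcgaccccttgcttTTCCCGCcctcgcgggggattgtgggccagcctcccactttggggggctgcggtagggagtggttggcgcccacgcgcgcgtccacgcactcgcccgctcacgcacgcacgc
Taf7l: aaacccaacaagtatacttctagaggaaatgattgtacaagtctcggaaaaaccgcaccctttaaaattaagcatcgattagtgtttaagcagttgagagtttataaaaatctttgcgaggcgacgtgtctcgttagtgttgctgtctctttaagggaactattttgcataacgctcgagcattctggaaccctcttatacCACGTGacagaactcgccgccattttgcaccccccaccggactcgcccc
Mael: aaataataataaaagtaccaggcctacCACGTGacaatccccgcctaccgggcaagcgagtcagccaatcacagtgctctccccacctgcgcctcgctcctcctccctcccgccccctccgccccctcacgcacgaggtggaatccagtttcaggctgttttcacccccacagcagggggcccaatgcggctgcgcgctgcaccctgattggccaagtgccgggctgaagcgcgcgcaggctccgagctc
Ddx4: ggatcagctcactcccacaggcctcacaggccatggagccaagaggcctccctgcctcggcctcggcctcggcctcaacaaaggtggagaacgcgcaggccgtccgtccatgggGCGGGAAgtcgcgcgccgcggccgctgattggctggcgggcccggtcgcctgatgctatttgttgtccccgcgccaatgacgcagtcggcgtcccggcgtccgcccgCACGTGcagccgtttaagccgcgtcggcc
The Stra8 window lies at chr6:34920698-34920947 on the plus strand and holds AGGTCA 194 and 38 bases before the start. The Tex14 window (chr11:87404815-87405064, plus strand) holds TTCCCGC 112 bases before the start. The Taf7l window (chrX:134476491-134476740, minus strand) holds CACGTG at 49 bases, the Mael window (chr1:166238745-166238994, minus strand) holds it at 223 bases, and the Ddx4 window (chr13:112652311-112652560, minus strand) holds it at 29 bases with an E2F core at 136 bases. Windows were found for 9 of the 10 genes. CACGTG was in 5 of them (Ddx4, Mael, Sycp3, Hormad1 and Taf7l), against 6.02% of all 32851 windows in the table. The E2F core was in 4 (Tex14, Ddx4, Sycp3 and Hormad1), against 3.82% of windows, AGGTCA was in 3 (Stra8, Sycp3 and Hormad1), against 14.0%, and GTAAACA was in 1 (Prdm1), against 3.17%. The Dazl window held none of the 4. The Ddx4 window had 31 CpG sites and a GC content of 70.4%, and the Stra8 window, with 5 CpG sites and a GC content of 54.8%, had the fewest CpG sites of the 9; the median window of the table had 6 sites and 52.4% GC. A match to letters is a description and not evidence of binding, and methylation was not measured.

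The deposited values were MAS5 signals, a linear brightness per probe set, scaled by the authors to the same trimmed mean of 500 in every array. The arrays' median signals ranged from 55.2 to 67.1 for transfected cells, against 73.0 to 80.7 for knockout cells, and replicates correlated at 0.981 to 0.987 over all probe sets. All 11 probe sets reached 65.8, the median of all values, in all 18 arrays, so all 10 genes were tested in every comparison. Differences are on the scale of log2(signal + 32), which understates the change of dim probe sets. A gene was called where limma's p-value, adjusted over all probe sets tested, was under 0.05. Signals are not compared between genes, because probe sets differ in brightness.

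The Foxd3 probe set 1422210_at went against the labels of the transfected cells. Its signal was 237 ± 5.95 in the arrays labelled Foxd3, 451 ± 38.6 in CA-NFATc3 arrays and 234 ± 37.7 in arrays labelled both, against 443 ± 55.9 in vector arrays (SD, n = 3 each). The difference between Foxd3 and vector was -0.81 ± 0.13 on the log2 scale (SE, limma adjusted p = 0.00239). No source used here says which stretch of the transcript the probes read or whether the plasmid holds it. In the knockout cells the same probe set gave 31.4 ± 29.6 after tamoxifen and 219 ± 25.9 in DMSO, a difference of -2.08 ± 0.27 (limma adjusted p = 0.000174). For Nfatc3 itself, probe set 1419976_s_at read 1732 ± 58.5 in CA-NFATc3 arrays and 1581 ± 31.4 in vector arrays (limma adjusted p = 0.452), and 1452497_a_at read 325 ± 39.0 and 253 ± 39.2 in the same groups (limma adjusted p = 0.34).

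Among transfected cells 3 of the 10 genes were called in at least 1 comparison: Stra8, Tex14 and Taf7l. In arrays labelled Foxd3, 1 of the 10 genes was called against vector, where 1.71% of all 23595 probe sets were called (0.534% lower), and it was Tex14, which fell. In CA-NFATc3 arrays 2 of 10 were called, against a background of 3.57% (2.84% higher and 0.729% lower): Stra8 fell and Taf7l rose. With both plasmids 1 of 10 was called against vector (background 2.84%, of which 0.678% were lower), again a lower Tex14. These 3 comparisons use the same vector arrays. Between both and CA-NFATc3 arrays, 2 of 10 were called (background 3.92%, with 1.67% higher and 2.25% lower), with Stra8 higher and Taf7l lower. Between both and Foxd3 arrays 0 of 10 were called by limma, and 0 had an unadjusted p under 0.05 (background 0.225%). The members' log2 differences there ran from -0.09 for Stra8 to 0.15 for Tex14. The median of the 10 genes was -0.18 for Foxd3, -0.18 for CA-NFATc3 and -0.16 for both against vector, and medians over all probe sets were -0.01, -0.02 and 0.00.

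In the conditional knockout cells most of the 10 genes were called. After tamoxifen 8 of 10 genes were called against DMSO, 6 lower (Mael, Stra8, Ddx4, Dazl, Tex14 and Sycp3) and 2 higher (Prdm1 and Dppa3), in a comparison that called 28.3% of all 24490 probe sets, 14.4% higher and 13.9% lower. The median difference of the 10 genes was -0.33, beside -0.01 over all probe sets. The arrays of the groups did not overlap for 7 of the 10, against 42.6% of all probe sets.

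**Figure D1:**
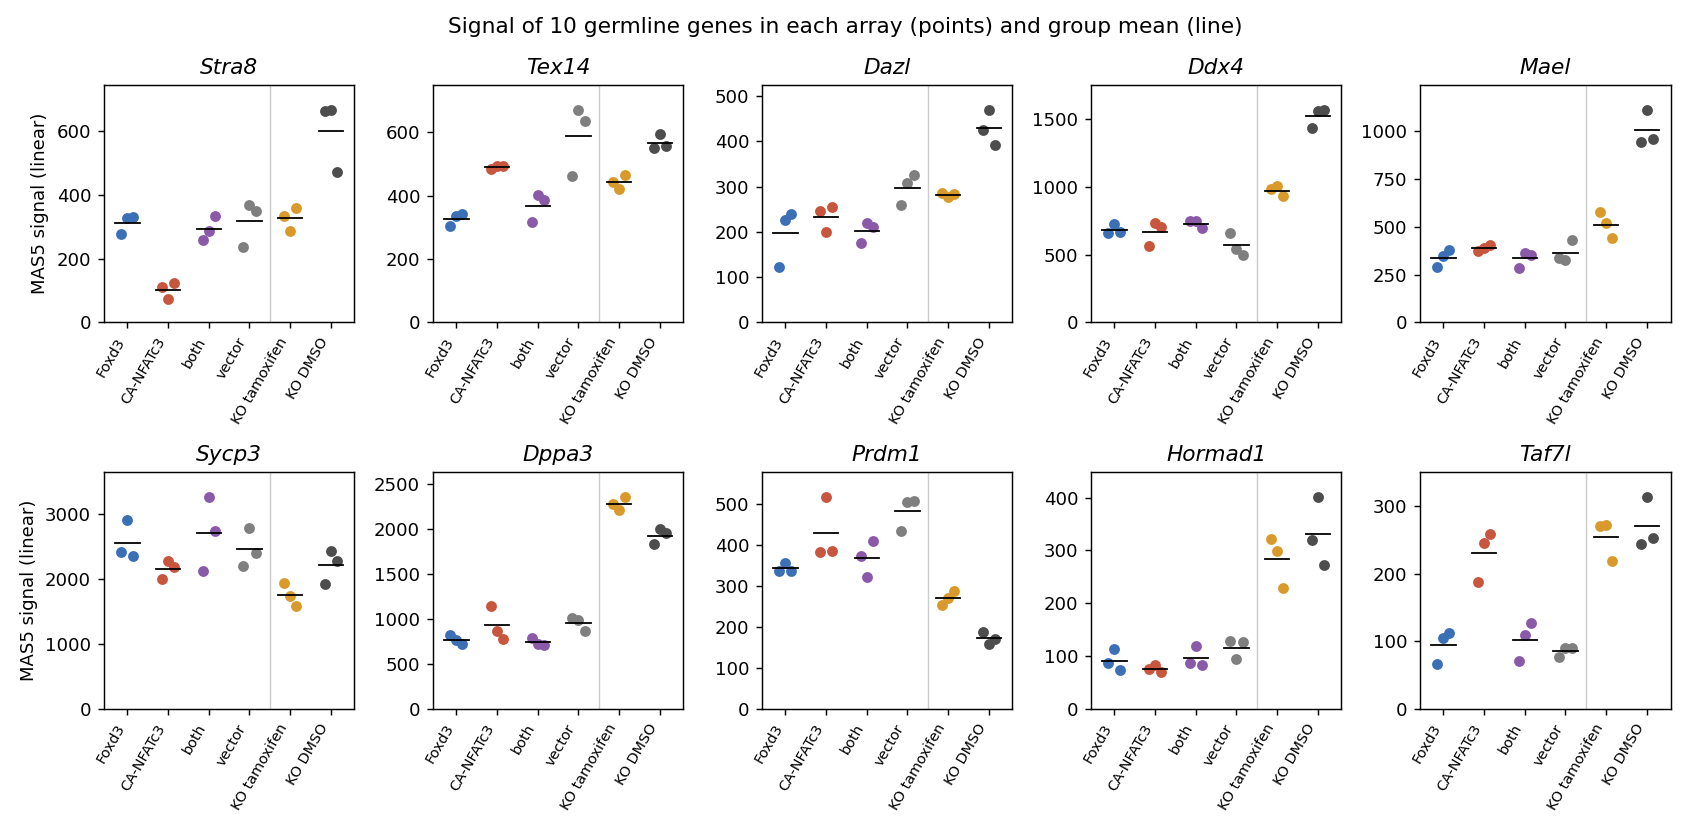
MAS5 signal (linear axis) of the 10 germline genes in each of the 18 arrays, with points for arrays and lines for the means of 3 arrays; a grey line parts the transfected cells on the left of each panel from the conditional knockout (KO) cells on the right. Stra8 is lowest in CA-NFATc3 arrays (74.6 to 124), Taf7l is at 188 to 259 there, and Mael and Ddx4 lie lower in tamoxifen arrays than in DMSO arrays without overlap.

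**Figure D2:**
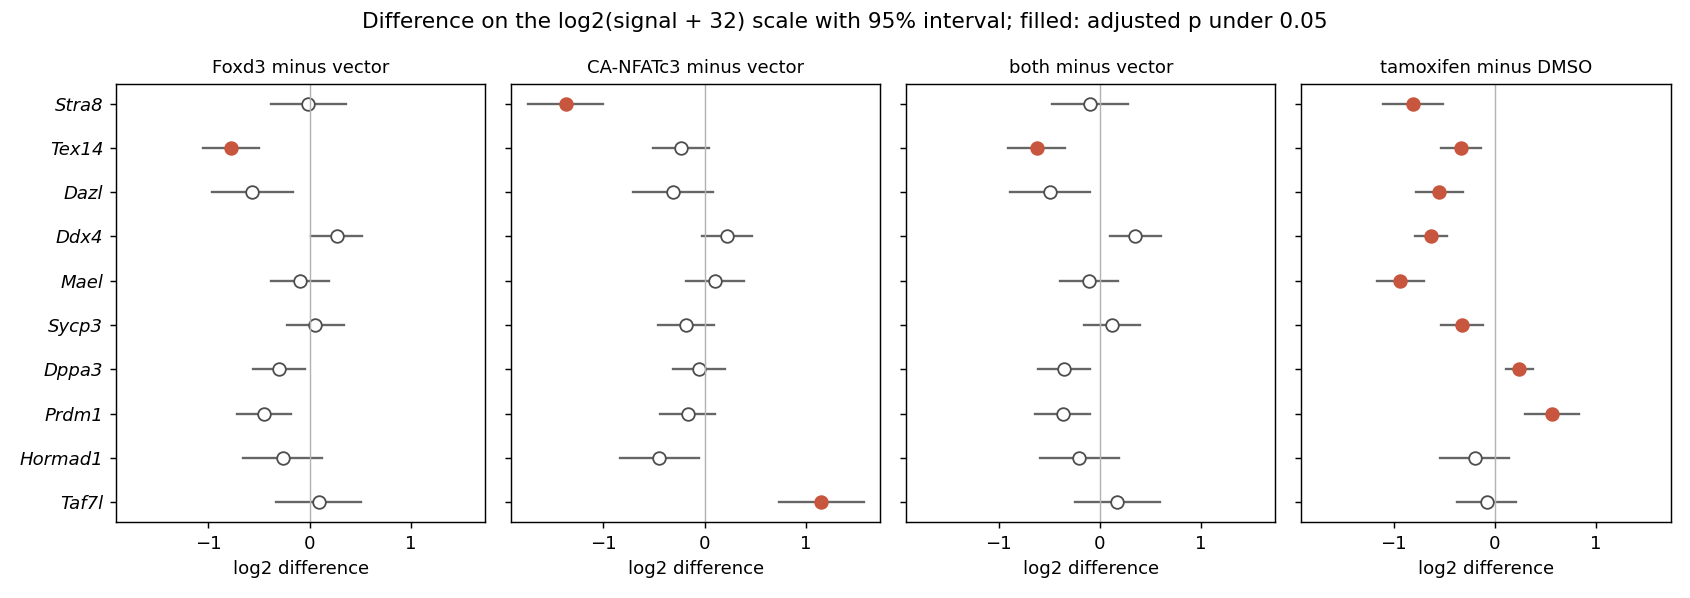
Difference of each of the 10 genes on the log2(signal + 32) scale, with its 95% interval, for Foxd3, CA-NFATc3 and both against vector and for tamoxifen against DMSO; filled points passed limma's test at an adjusted p under 0.05. Tex14 is filled for Foxd3 and both, Stra8 and Taf7l for CA-NFATc3, and 8 of 10 genes for tamoxifen.

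Stra8, which commits germ cells to meiosis, had the clearest pattern among transfected cells. Its signal was 110, 74.6 and 124 in the 3 CA-NFATc3 arrays, against 236, 370 and 351 in vector arrays. All 3 CA-NFATc3 arrays lay below every vector array. The difference was -1.37 ± 0.18 on the log2 scale (95% interval -1.75 to -1.0, limma adjusted p = 0.000175), or 2.59-fold lower for signal + 32. The arrays of both plasmids read 258, 286 and 332, which overlapped the vector arrays. Their difference from vector was -0.10 ± 0.18 (95% interval -0.47 to 0.28, limma adjusted p = 0.865), and their difference from CA-NFATc3 was 1.28 ± 0.18 (95% interval 0.91 to 1.65, limma adjusted p = 0.000419). The last 2 differences share arrays with the first. Arrays labelled Foxd3 read 276, 328 and 330, with a difference of -0.01 ± 0.18 from vector (limma adjusted p = 0.991).

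The effect of the Foxd3 plasmid on Stra8 beside CA-NFATc3 exceeded its effect alone by 1.29 ± 0.25 (95% interval 0.76 to 1.82, limma adjusted p = 0.0312). Stra8 was the only 1 of the 10 called in this test of the interaction, against 0.424% of all probe sets, of which 10 probe sets (0.0424%) were higher. The call was lost in 8 of the 12 fits that left out 1 array: without Foxd3 replicate 1, 2 or 3, without vector replicate 2 or 3, without CA-NFATc3 replicate 2, and without both replicate 2 or 3. Over all alternatives its adjusted p ran from 0.009 to 0.103 and its size from 1.13 to 1.54.

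In the knockout cells Stra8 read 334, 287 and 358 after tamoxifen, against 663, 666 and 472 in DMSO. All tamoxifen arrays were below all DMSO arrays, with a difference of -0.81 ± 0.14 (limma adjusted p = 0.00109), 1.75-fold lower for signal + 32. Across the 6 groups DMSO was highest without overlap with any other group, tamoxifen, vector, Foxd3 and both followed with overlapping arrays, and CA-NFATc3 was lowest without overlap.

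Genes of retinoic acid, the inducer of Stra8 in the gonad, were given from a list of 17, of which 9 were tested in transfected cells. In CA-NFATc3 arrays 2 were called higher than vector, 1 lower and 6 were not called; leaving out Cyp26a1 for the reason below, 1 of 8 was higher and 1 lower. Cyp26a1, the enzyme that degrades retinoic acid and is induced by it, read 483 ± 111 in CA-NFATc3 arrays and 9.04 ± 7.73 in vector arrays. It was under 65.8 in every other transfected array and passed the filter only through the CA-NFATc3 arrays, so it had to differ and its levels are a description with no test. Crabp2, a carrier of retinoic acid, read 1167 ± 279 and 119 ± 25.5 in the same groups (2.98 ± 0.20, limma adjusted p = 2.24e-07). The retinoic acid receptor Rarg read 222 ± 26.0 in CA-NFATc3 arrays and 352 ± 24.8 in vector arrays (-0.59 ± 0.14, limma adjusted p = 0.0246). The Rarg call was lost without CA-NFATc3 replicate 1 or 3 or vector replicate 1 or 3 (limma adjusted p up to 0.136), and with its probe sets averaged (0.153). In arrays of both plasmids Cyp26a1 was at 33.7 ± 15.2, and Crabp2, at 407 ± 69.5, was lower than in CA-NFATc3 arrays (-1.44 ± 0.20, limma adjusted p = 0.000539). Crabp2 was still higher with both plasmids than in vector arrays (407 ± 69.5 against 119 ± 25.5, 1.54 ± 0.20, limma adjusted p = 0.000424), where Stra8 was not called. In DMSO-treated knockout cells, the group with the highest Stra8, Crabp2 also exceeded vector (355 ± 64.5 against 119 ± 25.5, 1.36 ± 0.19, limma adjusted p = 6.83e-06). In arrays labelled Foxd3, limma called 0 of the 9 against vector, and 3 had an unadjusted p under 0.05. After tamoxifen 1 of 8 tested was called, Crabp1, another retinoic acid carrier, at 3354 ± 255 against 1211 ± 25.7 in DMSO (1.44 ± 0.07, limma adjusted p = 4.96e-08). Retinoic acid was not measured, and its part in the level of Stra8 was not tested.

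Markers of other cell types moved in the same CA-NFATc3 arrays. Of 8 primitive endoderm markers, 6 were tested and 4 rose against vector, led by Col4a1 (2.97 ± 0.13, limma adjusted p = 1.21e-09) and Col4a2 (2.23 ± 0.17, limma adjusted p = 6.64e-07), and the summed signal of the list was 3608 to 5334 in CA-NFATc3 arrays and 779.6 to 932 in vector arrays. Of 9 trophectoderm markers, 7 were tested and 3 were called higher, Krt19, Eomes and Elf5, the last of which passed the filter only through the CA-NFATc3 arrays (2 of 6 without it), with summed signals of 4968 to 5321 and 3389 to 4028 in the same groups. Between both and CA-NFATc3 arrays 4 markers of each list were called lower. The trophectoderm 4 included Elf5, which had to differ because of the filter, and without it 3 of 6 were lower. Without 1 array the primitive endoderm count was 2 to 4, at 2 without both replicate 3 or CA-NFATc3 replicate 1 or 3. The trophectoderm count without 1 array was also 2 to 4, at 2 without CA-NFATc3 replicate 2, with Elf5 counted where it passed the filter. Of 8 fibroblast markers 4 were tested and 1, Col3a1, rose in CA-NFATc3 arrays (221 ± 56.7, against 18.1 ± 5.12 in vector, a level under 65.8). All 7 embryonic stem cell markers were above 65.8 in every group, and limma called 0 of 7 between CA-NFATc3 and vector (0 at an unadjusted p under 0.05), with summed signals of 57095 to 60187 and 61813 to 66768. The part of these cells in the levels of Stra8 and Taf7l was not tested. In bulk RNA, fewer cells that express a gene and less RNA per cell cannot be told apart.

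Taf7l, the germ cell variant of a TFIID subunit, ran the other way in CA-NFATc3 arrays. It read 188, 244 and 259 there, against 76.4, 90.7 and 89.5 in vector arrays. Every CA-NFATc3 array was above every vector array, by 1.15 ± 0.20 on the log2 scale (95% interval 0.73 to 1.57, limma adjusted p = 0.00226), or 2.22-fold for signal + 32. Arrays of both plasmids read 70.7, 110.0 and 127, lower than CA-NFATc3 arrays without overlap (-0.98 ± 0.20, limma adjusted p = 0.00866). That call was lost without CA-NFATc3 replicate 3 (limma adjusted p = 0.061), over alternatives whose adjusted p ran from 0.000928 to 0.061. Arrays labelled Foxd3 read 67.2, 105 and 112, with a difference of 0.09 ± 0.20 from vector (limma adjusted p = 0.915). The interaction was -1.07 ± 0.28 (limma adjusted p = 0.16) and did not pass, though it did with the replicate number as a block (limma adjusted p = 0.024). In the knockout cells Taf7l read 270.3, 271 and 218 after tamoxifen, against 244, 313 and 252 in DMSO, and the groups overlapped (-0.08 ± 0.13, limma adjusted p = 0.709).

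Tex14, the protein of intercellular bridges, was the member called in arrays labelled Foxd3. It read 305, 335 and 342 there, against 463, 669 and 635 in vector arrays. All 3 lay below every vector array, with a difference of -0.77 ± 0.13 on the log2 scale (95% interval -1.05 to -0.50, limma adjusted p = 0.00434), or 1.71-fold lower for signal + 32. Arrays of both plasmids read 316, 401 and 388, also below every vector array (-0.62 ± 0.13, limma adjusted p = 0.0153). That call was lost without both replicate 1 or without vector replicate 2 or 3, and over all alternatives its adjusted p ran from 0.00199 to 0.0836. CA-NFATc3 arrays read 484, 493 and 495, within the range of the vector arrays (-0.23 ± 0.13, limma adjusted p = 0.509). After tamoxifen Tex14 read 443, 421 and 464, against 550.5, 594 and 556 in DMSO, which did not overlap (-0.34 ± 0.09, limma adjusted p = 0.0161). Without tamoxifen replicate 2 or DMSO replicate 2 this call was lost (limma adjusted p up to 0.0703, and from 0.0076 over all alternatives). Of the marker lists, Foxd3 against vector called 1 primitive endoderm gene, Col4a1 (0.70 ± 0.13, limma adjusted p = 0.00988), a call lost without Foxd3 replicate 3 (0.0743) and with its probe sets averaged (0.192). Both against vector called 3 of 4 tested fibroblast markers, 3 of 6 primitive endoderm markers and 1 of 7 trophectoderm markers higher and 1 of 7 embryonic stem cell markers lower. Without any 1 of the 6 arrays 2 fibroblast markers were called. The trophectoderm call (Krt18) was lost without both replicate 3 or vector replicate 1 or 3 (limma adjusted p up to 0.0876), and the stem cell call (Esrrb) without both replicate 1, 2 or 3 or vector replicate 2 or 3 (up to 0.163). Their part in the level of Tex14 was not tested.

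Among RNA-binding and germ granule proteins, all 3 members, Mael, Ddx4 and Dazl, fell after tamoxifen. Mael, needed for piRNA silencing, read 575, 521 and 439 after tamoxifen, against 941, 1109 and 961 in DMSO. The groups lay far apart, with a difference of -0.93 ± 0.11 (limma adjusted p = 6.37e-05), 1.91-fold lower for signal + 32. Ddx4, the Vasa helicase, read 981, 1010 and 930.2 after tamoxifen, against 1433, 1565 and 1566 in DMSO. The groups did not overlap (-0.63 ± 0.07, limma adjusted p = 6.57e-05), and the fold was 1.54 lower for signal + 32. Dazl, by its brighter probe set 1419542_at, read 286, 277 and 284 after tamoxifen, against 426, 469 and 392 in DMSO. It fell without overlap (-0.55 ± 0.11, limma adjusted p = 0.0023). The 2 probe sets of Dazl disagreed on the call: 1449502_at read 176, 177 and 151 after tamoxifen and 237, 202 and 156 in DMSO, which overlapped (-0.19 ± 0.16, limma adjusted p = 0.4).

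None of these 3 genes was called by limma among the transfected groups. Mael lay between 286 and 431 in all 12 arrays, and its differences from vector were -0.10 for Foxd3, 0.10 for CA-NFATc3 and -0.11 for both (limma adjusted p 0.792 to 0.854). Ddx4 lay between 500.1 and 747, and its 3 arrays of both plasmids (747, 747 and 694) were above the vector arrays (661, 542 and 500.1) without passing the test (0.35 ± 0.12, limma adjusted p = 0.142). Dazl by 1419542_at read 123, 226 and 240.2 in arrays labelled Foxd3 and 176, 220.3 and 211 in arrays of both plasmids, against 259, 308 and 325 in vector arrays. Both groups lay below vector without overlap, at -0.56 ± 0.19 (limma adjusted p = 0.182) and -0.49 ± 0.19 (limma adjusted p = 0.217), which is short of the threshold. The dimmer Dazl probe set 1449502_at overlapped vector in the same comparisons, at -0.17 ± 0.19 (limma adjusted p = 0.808) and 0.08 ± 0.19 (limma adjusted p = 0.899). The arrays of the groups did not overlap for 4 of the 10 genes between Foxd3 and vector (17.3% of all probe sets), 4 between CA-NFATc3 and vector (17.4%), 5 between both and vector (19.7%), 5 between both and CA-NFATc3 (18.1%) and 0 between both and Foxd3 (10.6%).

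Of the 2 proteins of meiotic chromosome axes, Sycp3 was called after tamoxifen. It read 1937, 1736 and 1579, against 1916, 2433 and 2265 in DMSO. Tamoxifen replicate 1 lay above DMSO replicate 1, so the groups overlapped, and the difference was -0.32 ± 0.10 (limma adjusted p = 0.0253). The call was lost without tamoxifen replicate 2 or 3 or DMSO replicate 2 or 3, without the filter on dim probe sets (0.051), and in a fit of all 18 arrays (0.0784), with adjusted p from 0.00333 to 0.11 over all alternatives. Hormad1, which recruits the machinery of pairing and recombination, read 321, 298 and 230 after tamoxifen and 320.2, 401 and 272 in DMSO, and the groups overlapped (-0.20 ± 0.15, limma adjusted p = 0.369). Among transfected cells neither was called. Sycp3 ranged from 1989 in a CA-NFATc3 array to 3253 in an array of both plasmids. Hormad1 was dim, between 69.3 and 128, and its CA-NFATc3 arrays (75.8, 83.0 and 69.3) lay below the vector arrays (128, 94.1 and 126) without passing (-0.45 ± 0.18, limma adjusted p = 0.277).

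The 2 factors of early germ cells rose after tamoxifen. Prdm1, the repressor that specifies germ cells, read 255, 271 and 288, against 188, 159 and 171 in DMSO. All tamoxifen arrays were higher, by 0.57 ± 0.12 (limma adjusted p = 0.00482), or 1.48-fold for signal + 32. Dppa3, which protects methylation marks in the early embryo, read 2286, 2212 and 2357 after tamoxifen, against 1831, 1998 and 1955 in DMSO. It rose by 0.24 ± 0.06 without overlap (limma adjusted p = 0.0131), a 1.18-fold difference for signal + 32, and the call was lost without tamoxifen replicate 3 (0.0604) and in the fit of all 18 arrays (0.111); the lowest adjusted p over alternatives was 0.00951. In arrays labelled Foxd3 both genes lay below vector without overlap and short of the threshold. Prdm1 read 337, 355 and 337 in those arrays, against 433, 506 and 507 in vector (-0.45 ± 0.13, limma adjusted p = 0.101). Dppa3 read 822, 771 and 722 there, against 1016, 992 and 873 in vector (-0.30 ± 0.12, limma adjusted p = 0.309). With both plasmids the differences from vector were -0.36 ± 0.13 for Prdm1 (limma adjusted p = 0.168) and -0.35 ± 0.12 for Dppa3 (limma adjusted p = 0.16).

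Other genes of the same programmes, from lists of known members, were set beside the 10 after tamoxifen. Of 24 other meiotic chromosome genes 16 were tested, and 7 were called lower, 0 higher and 9 were not called, with a median of -0.32, beside 28.3% of all probe sets called and a median of -0.01. Smc1b, the meiotic cohesin subunit, read 38.4 ± 16.1 after tamoxifen and 140 ± 29.0 in DMSO; it passed the filter only through the DMSO arrays, so it had to differ and is given with no test, and without it 6 of 15 were lower. Without 1 array the count was 4 to 6, at 4 without DMSO replicate 2. Mnd1, which acts in strand exchange, read 503 ± 62.9 and 788 ± 19.2 in the same groups (-0.62 ± 0.10, limma adjusted p = 0.000641), and Syce3, of the synaptonemal complex, read 323 ± 18.2 and 461 ± 42.0 (-0.47 ± 0.10, limma adjusted p = 0.00574). Of 19 other germ granule and piRNA genes 13 were tested, and 1 was called higher, 4 lower and 8 were not called, with a median of -0.15. The 5 of 13 called stand beside 28.3% of all probe sets, and no excess is read from them. Without 1 array 1 to 3 were lower, at 1 without DMSO replicate 2, where 2 were higher, and at 2 without tamoxifen replicate 1 or 3 or DMSO replicate 1 or 3. Tdrd12 fell (1335 ± 55.2 after tamoxifen and 1943 ± 168 in DMSO, -0.53 ± 0.08, limma adjusted p = 0.000318). Piwil4 read 61.7 ± 3.07 and 120 ± 25.8 in the same groups; it passed the filter only through the DMSO arrays and is given with no test, and without it 3 of 12 were lower. Tdrd7, which is also a component of RNA granules in somatic tissue such as the lens, rose (642 ± 35.4 after tamoxifen and 217 ± 26.3 in DMSO, 1.44 ± 0.11, limma adjusted p = 2.44e-06).

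Lists of earlier and later germ cells were counted in the same way. Of 15 other primordial germ cell genes 13 were tested, and 4 rose, 3 fell and 6 were not called, with a median of 0.01. Tfap2c, a factor that acts with Prdm1 in germ cells and is also a trophectoderm factor, read 3217 ± 366 after tamoxifen and 1362 ± 30.3 in DMSO (1.22 ± 0.08, limma adjusted p = 5.93e-07). Ifitm3 (Fragilis) read 9597 ± 465 and 4424 ± 175 in the same groups (1.11 ± 0.05, limma adjusted p = 5.42e-08), and the Kit ligand Kitl read 595 ± 57.2 and 276 ± 19.1 (1.02 ± 0.11, limma adjusted p = 2.87e-05). Lin28a was among the 3 that fell, with a log2 difference of -0.62 to -0.43 over the alternatives, and its levels are given at the end. Of 12 genes of sperm after meiosis 1 was tested and limma called 0 (0 at an unadjusted p under 0.05). Of 12 oocyte genes 4 were tested and 1, Sohlh2, fell (-0.35 ± 0.12, limma adjusted p = 0.043), a call lost without tamoxifen replicate 1, 2 or 3 or DMSO replicate 1 or 2 (limma adjusted p up to 0.166), and in 3 other alternatives (up to 0.189).

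**Figure D3:**
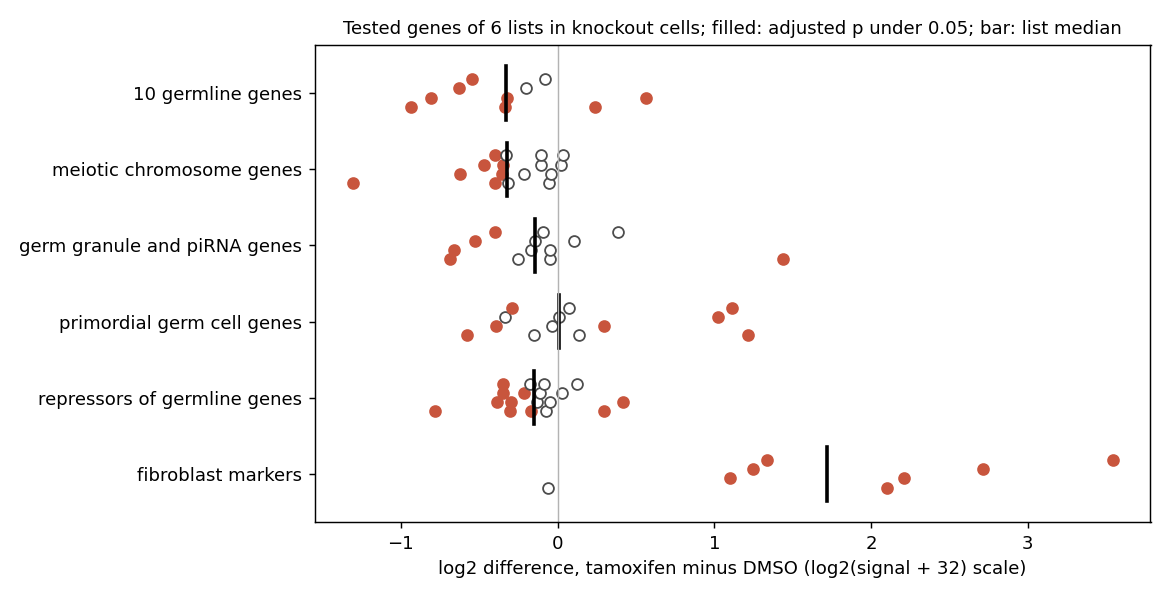
Log2 difference, tamoxifen minus DMSO, of each tested gene in the 10 germline genes and 5 other lists, with filled points for genes called by limma and a black bar at each list's median. The medians of the 10 genes (-0.33) and of the meiotic chromosome list (-0.32) lie below 0, that of the primordial germ cell list is at 0.01, and that of the fibroblast markers is at 1.72; Smc1b, Piwil4 and Lum, which passed the filter through 1 group only, are among the points.

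The list of repressors of germline genes, DNA methyltransferases and the E2F6 and MGA complex among them, had 18 of 20 genes tested. After tamoxifen 2 rose, 8 fell and 8 were not called, with a median of -0.15, beside 28.3% of all probe sets called. Without 1 array 0 to 2 rose, 0 without tamoxifen replicate 2 or 3 and 1 without DMSO replicate 2 or 3. Dnmt3a, a de novo DNA methyltransferase, read 1537 ± 110 after tamoxifen and 2688 ± 504 in DMSO (-0.78 ± 0.11, limma adjusted p = 0.000353). Mga, the scaffold of the complex, read 2112 ± 198 and 2767 ± 97.1 in the same groups (-0.39 ± 0.07, limma adjusted p = 0.00202), a call lost with its probe sets averaged (0.179). Max was among the 2 that rose, by 0.34 to 0.51 over the alternatives, and its call was lost in 3 of 15 of them (limma adjusted p up to 0.107). In arrays labelled Foxd3, 2 of 18 were called against vector and both rose: Dnmt3b, the other de novo methyltransferase, at 10040 ± 928 against 4464 ± 1295 in vector (1.20 ± 0.16, limma adjusted p = 0.000783), and Dnmt3a at 1956 ± 236 against 1069 ± 246 (0.87 ± 0.20, limma adjusted p = 0.0337). The Dnmt3a call was lost without Foxd3 replicate 1, 2 or 3 or vector replicate 2 or 3 (limma adjusted p up to 0.164) and without the filter (0.0518). With both plasmids Dnmt3b (1.01 ± 0.16, limma adjusted p = 0.00206) and Dnmt3a (0.78 ± 0.20, limma adjusted p = 0.0465, up to 0.17 in 7 alternatives that lost it, among them the fits without both replicate 1 or 3 or vector replicate 2 or 3) were called against vector. In CA-NFATc3 arrays 1 of 18 was called, Dnmt3b, at 7031 ± 992 against 4464 ± 1295 in vector (0.68 ± 0.16, limma adjusted p = 0.0269). That call was lost without CA-NFATc3 replicate 1 or 3 or vector replicate 2 or 3 (limma adjusted p up to 0.179).

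The germ cell lists were counted among transfected cells too. Against vector, 1.71% of all probe sets were called for Foxd3, 3.57% for CA-NFATc3 and 2.84% for both. No excess or shortfall is read from the list counts that follow. Of 16 tested meiotic chromosome genes limma called 1 between Foxd3 and vector, 0 between CA-NFATc3 and vector (2 at an unadjusted p under 0.05), and 1 between both and vector. The gene was Rec8, the meiotic cohesin kleisin, which rose to 373 ± 40.8 in arrays labelled Foxd3 and 346 ± 18.4 in arrays of both plasmids, against 203 ± 57.2 in vector arrays (0.81 ± 0.17, limma adjusted p = 0.0182, and 0.71 ± 0.17, limma adjusted p = 0.0295). The first call was lost without Foxd3 replicate 3 or vector replicate 1 or 3 (limma adjusted p up to 0.112), and the second without both replicate 1, 2 or 3 or vector replicate 1 or 3 (up to 0.137). Of 11 germ granule genes limma called 0 for Foxd3 and 0 for CA-NFATc3 against vector, with 3 and 1 at an unadjusted p under 0.05. For both against vector Tdrkh rose (0.57 ± 0.14, limma adjusted p = 0.0424) and Tdrd12 fell (-0.30 ± 0.08, limma adjusted p = 0.0496). The Tdrkh call was lost without both replicate 1, 2 or 3 or vector replicate 2 or 3 (adjusted p up to 0.205), and the Tdrd12 call without any 1 of the 6 arrays (up to 0.176). Of 14 primordial germ cell genes, Foxd3 against vector called 1 higher and 3 lower, CA-NFATc3 called 0 higher and 1 lower, and both called 3 higher and 4 lower. For Foxd3, without 1 array 0 to 1 were higher and 1 to 2 lower, with 0 higher and 1 lower without Foxd3 replicate 3 and 1 lower without Foxd3 replicate 2 or vector replicate 2 or 3. For both, 2 to 3 were higher and 1 to 3 lower, with 1 lower without both replicate 3 or vector replicate 2 and 2 lower without both replicate 1 or vector replicate 3. Prdm14, which works beside Prdm1 in germ cells and guards naive pluripotency, fell in CA-NFATc3 arrays (1273 ± 47.5, against 1842 ± 98.1 in vector, -0.52 ± 0.08, limma adjusted p = 0.000858) and with both plasmids (-0.50 ± 0.08, limma adjusted p = 0.00186). Of 2 sperm genes and 3 oocyte genes tested, limma called 0 in these 3 comparisons, and 0 had an unadjusted p under 0.05.

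Fibroblast markers moved with the tamoxifen comparison. Of 8 markers 7 were called higher after tamoxifen and 1 was not called, with a median of 1.72; without Lum, which passed the filter only through the tamoxifen arrays, 6 of 7 were higher, with a median of 1.33. Dcn read 2863 ± 268 after tamoxifen and 225 ± 88.0 in DMSO (3.54 ± 0.18, limma adjusted p = 8.05e-08), and Col1a2 read 7594 ± 680 and 1130 ± 113 (2.72 ± 0.08, limma adjusted p = 2.34e-09). The summed signal of the list was 12756 to 14500 in tamoxifen arrays and 2598 to 2955 in DMSO arrays. In vector arrays the sum was 469 to 561 and 6 of the 8 were under 65.8 in all arrays. The counts in this comparison stand beside 28.3% of all probe sets called. Of 8 primitive endoderm markers 7 were tested and 4 rose after tamoxifen: Dab2, Col4a1, Col4a2 and Pdgfra, which is also on the fibroblast list. The Col4a1 call was lost in 5 of 6 fits without 1 array (limma adjusted p up to 0.126). Of 7 tested trophectoderm markers 1 rose, Tfap2c, which is also on the primordial germ cell list. Krt19 and Krt7 fell, and the Krt7 call was lost in 5 of 6 such fits (up to 0.169). Of 7 embryonic stem cell markers 2 were called, both lower, a share near the 28.3% of all probe sets, and nothing is read from it. They were Pou5f1 (-0.19 ± 0.06, limma adjusted p = 0.0237) and Sox2 (-0.17 ± 0.04, limma adjusted p = 0.013). The summed signal of the 7 markers was 41961 to 43380 in tamoxifen arrays and 44291 to 47881 in DMSO arrays. Both calls were lost without tamoxifen replicate 2 or DMSO replicate 2, and that of Pou5f1 also without tamoxifen replicate 1 (limma adjusted p up to 0.107 for Pou5f1 and 0.0616 for Sox2). The Pou5f1 call was also lost with quantile normalization (0.116), without the filter (0.0523) and in the fit of all 18 arrays (0.0691). Of 9 markers of Sertoli cells and other somatic cells of the gonad 4 were tested and limma called 0 after tamoxifen (0 at an unadjusted p under 0.05), and Sox9, Amh, Nr5a1 and Cyp17a1 were under 65.8 in all arrays of every group. The actin 3′ to 5′ signal ratio, a measure of RNA integrity, was 1.89 ± 0.00311 after tamoxifen and 2.15 ± 0.0884 in DMSO. The same ratio for Gapdh was 1.01 ± 0.0144 and 1.01 ± 0.0309 in these groups. The part of these differences in the fall of Mael, Ddx4, Stra8 and Dazl was not tested.

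**Figure D4:**
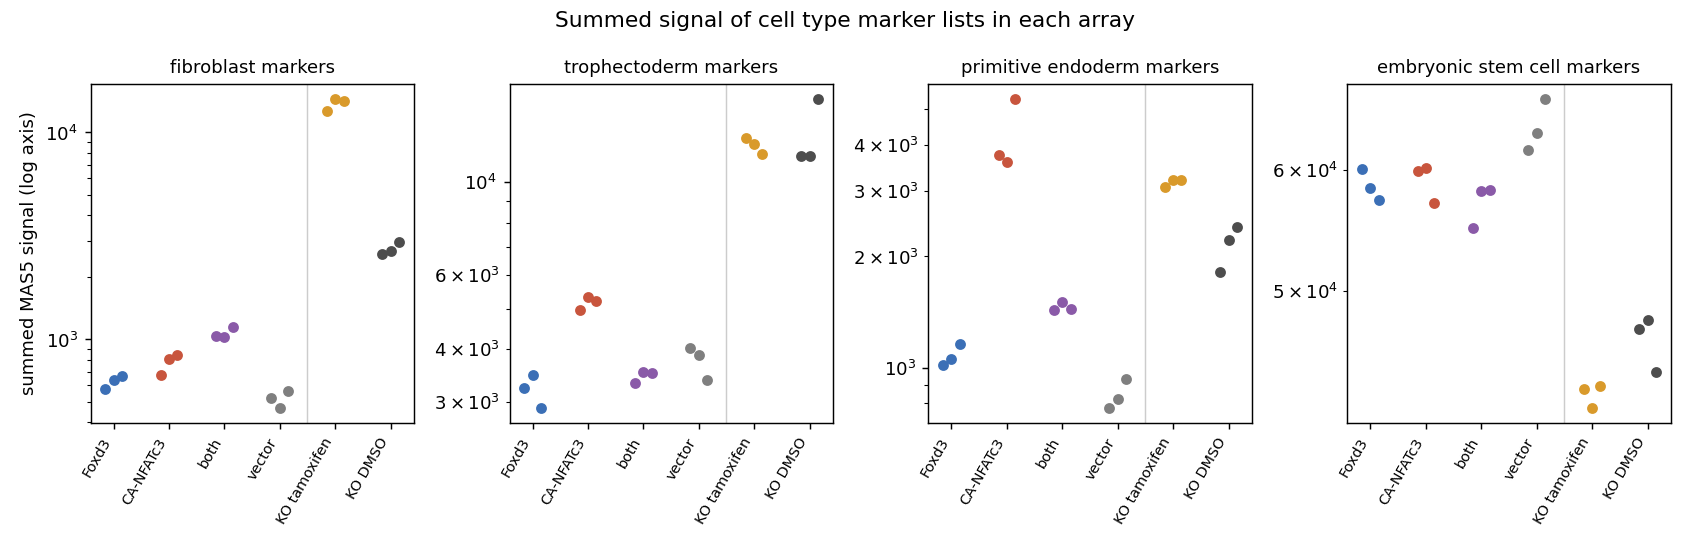
Summed MAS5 signal (log axis) of 4 marker lists in each of the 18 arrays; a grey line parts transfected cells from conditional knockout (KO) cells. Fibroblast markers are highest after tamoxifen (12756 to 14500), primitive endoderm markers are higher in CA-NFATc3 arrays (3608 to 5334) than in the other transfected arrays, and embryonic stem cell markers are lower in both knockout groups than in the transfected groups.

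The 2 sets of control cells differed in most members. Between DMSO-treated knockout cells and vector-transfected cells, 8 of 10 genes were called, 7 higher and 1 lower, in a comparison that called 48.4% of all 26305 probe sets (29.8% higher and 18.6% lower). The median over all probe sets was 0.13 as deposited and -0.01 after quantile normalization, and the split of all calls was 7851 higher and 4889 lower as deposited, against 5700 higher and 6246 lower after it. The median of the 10 genes was 0.92 as deposited, and arrays did not overlap for 8 of them, against 56% of all probe sets. Mael (1.39 ± 0.13, limma adjusted p = 2.58e-08), Ddx4 (1.38 ± 0.10, limma adjusted p = 1.26e-09), Taf7l (1.36 ± 0.18, limma adjusted p = 3.02e-06) and Hormad1 (1.29 ± 0.17, limma adjusted p = 4.13e-06) were higher in DMSO arrays. Dppa3 was higher by 0.98 ± 0.11 (limma adjusted p = 1.9e-07) and Stra8 by 0.86 ± 0.17 (limma adjusted p = 0.000339), and these 6 kept their direction and call after quantile normalization. Dazl was higher by 0.49 ± 0.17 (limma adjusted p = 0.0194), a call lost after quantile normalization (0.132) and without DMSO replicate 2 (0.0758) or vector replicate 1 (0.0852); the lowest adjusted p over alternatives was 0.00135. Prdm1 was lower in DMSO arrays (-1.33 ± 0.12, limma adjusted p = 2.21e-08). Sycp3 (-0.15 ± 0.13) and Tex14 (-0.04 ± 0.12) were not called (limma adjusted p = 0.342 and 0.817).

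The other lists are given beside the 48.4% of all probe sets called between these control cells, and nothing is read from a share near it. Of 17 tested meiotic chromosome genes 11 were higher and 5 lower in DMSO arrays, led by Sycp1 of the synaptonemal complex (2.10), Smc1b (1.73) and Hormad2 (-1.57). Of 13 germ granule genes 10 were higher and 1 lower (9 and 1 of 12 without Piwil4, which passed the filter only through the DMSO arrays), and of 14 primordial germ cell genes 3 were higher and 7 lower (1 higher without DMSO replicate 3), among them Tcl1 (-2.58) and Prdm14 (-2.27). Of 18 repressors 6 were higher and 5 lower, with Dnmt3b at 1.60 and Dnmt3a at 1.31 and a list median of -0.01. Among the lower ones were Max (-0.92 to -0.68 over the alternatives) and Rnf2 (-0.70 to -0.37). Of 11 retinoic acid genes 2 were higher, and of 8 fibroblast markers 7 were higher in DMSO arrays. Of 8 tested trophectoderm markers 6 were higher and 1 lower, led by Krt18 (3.95) and Krt8 (3.86). Of 7 embryonic stem cell markers 1 was higher and 5 were lower. Line, transfection and processing go together between these groups and cannot be told apart. The DMSO arrays also stand in the tamoxifen comparison, and the vector arrays in the transfection comparisons.

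For the 3 members called in at least 2 comparisons of transfected cells, the genes with the most similar pattern over the 12 arrays were found among 11608 others by Pearson's r. The points share 12 arrays in 4 groups, so r mostly follows the group means. Stra8 was closest to Nup88 (r = 0.955), Ier5l (0.948) and Nr0b1 (0.944). Ier5l read 258 ± 17.0 in Foxd3 arrays, 135 ± 24.9 in CA-NFATc3 arrays, 260.2 ± 8.68 with both and 247 ± 20.6 in vector arrays. Tex14 was closest to Hsf2bp (0.96), Ooep (0.954) and Icam1 (0.953), and Ooep read 4716 ± 58.7, 6516 ± 21.4, 4636 ± 231 and 7784 ± 779 in the same order of groups. Taf7l was closest to Atrx (0.966), Fam107b (0.964) and Cdo1 (0.958).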

How the data were processed

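The authors deposited an intensity for each probe set and array, a linear MAS5 signal as the submitters' processing notes name it, with no version given. The background correction and detection calls behind it are not stated in any source used here. In the values themselves, the mean without the lowest and highest 2% was 500 in each of the 18 arrays, and no 2 arrays shared more than 0.00443% of their values. The annotation gave a single symbol to 34945 of the 45101 probe sets, several to 932 and none to 9160; the other 64 were controls.

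To each deposited intensity 32 was added before taking log2. Probe sets at or over 65.8, the median of all values, in at least 3 arrays of a fit were tested two-sided by limma 3.58.1 under R 4.3.3, using lmFit, contrasts and eBayes with a variance trend. The Benjamini-Hochberg adjustment ran over all probe sets tested. The 12 arrays of transfected cells and the 6 of knockout cells were fitted apart, and all 18 together for DMSO against vector. A gene was counted by its brightest probe set. Plots were drawn in Python 3.11.15 with matplotlib 3.10.9, and the procedure was tested on simulated data. There, log2 changes of 0.5 in brighter probe sets were called in 47% (Foxd3 against vector) to 66% (DMSO against vector). For the interaction 18% of such changes were called, so a gene not called may still differ by that much. The number of arrays, 3 a group, limits the precision.

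The 10 genes and all lists were chosen with earlier results of these data known. All 10 genes are described. From each other list, called genes are named, at most 4 per comparison, those with the largest difference, beside markers at low signal. The alternatives were offsets of 16 and 0, quantile normalization, no filter, all 18 arrays in 1 fit (for DMSO against vector, only the 6 arrays of these groups), 1 probe set per gene, the mean of a gene's probe sets, array weights, the replicate number as a block, and leaving out each array.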

Additional observations from a re-analysis of the deposited data

Results flagged for a closer look

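The effect of the Foxd3 plasmid beside CA-NFATc3 differed from its effect alone for 5 genes of the 10 and the lists by limma's test of that difference, and 2 more are given as a description. Over all probe sets 0.424% were called in that test, and 1 of the 5 genes, Stra8, was among the 10. The difference was 1.29 for Stra8, -2.27 for Crabp2, -1.59 for Eomes, -2.46 for Col4a1 and -1.69 for Col4a2 on the log2(signal + 32) scale. So Stra8 was higher, and Crabp2, Eomes, Col4a1 and Col4a2 were lower, than the separate effects of the plasmids add up to. The difference was -2.10 for Elf5 and -2.90 for Cyp26a1, which passed the filter only through the CA-NFATc3 arrays, so that these values are fixed by that choice and support nothing. Both averaged under 65.8 in the other 3 transfected groups, and without an offset their limma adjusted p was 0.696 and 0.431. The Stra8 call was lost in 8 of the 12 fits that left out 1 array (limma adjusted p up to 0.103) and without the filter (0.0588). The Eomes call was lost without CA-NFATc3 replicate 3 (limma adjusted p = 0.0673). Groups of 3 arrays are too small to test for a single array that stands apart.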

How the results depend on the processing

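Of 80 differences of the 10 genes, 23 were called, 16 of these kept the call in all alternatives, 4 lost it in an alternative that kept all arrays, 7 lost it without 1 array, and 0 called differences reversed. The number of members called moved by more than 1.5 times with the replicate number as a block, to 2 for both against vector, 4 for both against CA-NFATc3 and 2 for the interaction, and without the filter, to 0 for the interaction (Stra8, limma adjusted p = 0.0588). Leaving out 1 array gave 0 to 1 members for both against vector, 1 to 3 for both against CA-NFATc3 and 0 to 1 for the interaction. The interaction of Dppa3 turned to -0.0116 with quantile normalization.

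Differences that turned sign without 1 array, none called in any of these fits, ran from -0.20 to 0.10 (Stra8), -0.18 to 0.0213 (Mael), -0.0385 to 0.15 (Sycp3) and -0.0099 to 0.26 (Taf7l) for Foxd3 against vector; -0.21 to 0.0585 for CA-NFATc3 against vector (Dppa3); and -0.28 to 0.0117 (Stra8), -0.17 to 0.0114 (Mael) and -0.0236 to 0.28 (Sycp3) for both against vector. Between both and Foxd3 they ran from -0.18 to 0.22 (Dazl), -0.11 to 0.0899 (Mael), -0.0802 to 0.23 (Sycp3), -0.0592 to 0.19 (Hormad1) and -0.0836 to 0.27 (Taf7l). The others were the interaction of Dppa3 (-0.11 to 0.17), Taf7l after tamoxifen (-0.14 to 0.0208) and Tex14 in DMSO against vector (-0.19 to 0.0585). The cause was not tested.

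Deviations of same-numbered transfected arrays correlated at 0.0716 to 0.263 over 18 pairs, and each of 12 arrays correlated best with its own number, a hint from the data and not the design; in knockout cells 3 pairs gave -0.026 to 0.0272, so the numbers were not taken as pairing. The block called 966 probe sets for Foxd3, 1397 for CA-NFATc3 and 1450 for both against vector, 1619 for both against CA-NFATc3, 119 for both against Foxd3 and 228 for the interaction, where the fits without it called 403, 842, 669, 926, 53 and 100. Under the block 4 further members' differences were called: Dppa3 for both against vector, Sycp3 and Tex14 for both against CA-NFATc3 (limma adjusted p = 0.0265, 0.0288 and 0.0312), and the interaction of Taf7l (0.024).

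Averaging probe sets by gene tested fewer features and called 220, 506, 341, 523 and 25 in the first 5 of these, 3100 after tamoxifen (6932 before) and 6162 for DMSO against vector (12740 before); 1 probe set per gene gave 4165 and 6968 for the last 2. All 18 arrays in 1 fit called 629 for Foxd3, 1031 for both and 178 for the interaction, and no offset called 34 between both and Foxd3 and 65 for the interaction. Fits without 1 array called 195 to 345 for Foxd3, 436 to 764 for CA-NFATc3, 363 to 514 for both, 461 to 721 for both against CA-NFATc3, 23 to 38 for both against Foxd3 and 52 to 97 for the interaction. Whether dim probe sets such as that of Hormad1 in transfected cells hide small differences was not tested.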

Other observations

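The stem cell factor pair of germ cells moved in arrays of both plasmids. Kitl, the ligand, read 366 ± 61.0 there and 118 ± 49.2 in vector arrays (1.45 ± 0.24, limma adjusted p = 0.00304). Kit, its receptor, read 1103 ± 136 with both and 1583 ± 166 in vector arrays (-0.51 ± 0.11, limma adjusted p = 0.0212), a call lost without both replicate 1 or 3 or vector replicate 2 (limma adjusted p up to 0.113) and with its probe sets averaged (0.174). In arrays labelled Foxd3 Kit read 1023 ± 73.0 (-0.61 ± 0.11 against vector, limma adjusted p = 0.00887), a call lost without Foxd3 replicate 3 (0.0621) or vector replicate 2 (0.0541); its adjusted p over all alternatives began at 0.000167. Lin28a, an RNA-binding protein that acts upstream of Prdm1 in germ cells, read 1857 ± 126 in arrays labelled Foxd3 and 1303 ± 104 in vector arrays (0.50 ± 0.09, limma adjusted p = 0.00806). Without Foxd3 replicate 3 its adjusted p was 0.0613, and with its probe sets averaged 0.0811. After tamoxifen Lin28a was lower, at 817 ± 26.9 against 1238 ± 67.2 in DMSO (-0.58 ± 0.08, limma adjusted p = 0.000159), and with its probe sets averaged the adjusted p was 0.129.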
